A study of Mus musculus with 9 samples.

Results

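The genes described here are 10 transcripts known to be raised by signalling through the kinase ERK, most of which feed back on that signalling. They are the phosphatases Dusp4, Dusp5 and Dusp6, the Sprouty genes Spry1, Spry2 and Spry4, the SPRED genes Spred1 and Spred2, and the transcription factors Etv4 and Etv5. They were taken by symbol from 54838 genes in the table. Each symbol matched 1 Ensembl identifier, and all 10 were among the 13153 genes that passed the filter on low counts, with 100 to 3410 counts in each library.

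RNA was sequenced from untreated cultures of PDA530 Met, a cell line grown from a liver metastasis of pancreatic ductal adenocarcinoma in a male KPC mouse (mixed 129/SvJae/C57Bl/6 background). KPC mice are a genetic model of this cancer, and all groups descend from the same tumour line. The knockout group was clone E4, grown from a single cell after CRISPR/Cas9 editing of Zdhhc20, a palmitoyltransferase. The control group was clone C5, a single-cell clone given the same guide RNAs by nucleofection without successful editing, and the parental group was the uncloned line. Each group had 3 libraries, and since each clone is represented once, its 3 libraries are replicates of that clone, so p-values measure the spread between cultures and not between clones.

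In this pathway a growth factor receptor activates Ras, Ras activates RAF, RAF phosphorylates MEK, and MEK phosphorylates ERK. ERK then changes transcription, partly by releasing target genes from the repressor Capicua and partly through ETS factors and the serum response factor. Among the induced genes are the brakes of the pathway. Dusp4, Dusp5 and Dusp6 encode phosphatases that remove the activating phosphates from ERK, Sprouty proteins interfere with activation of Ras and RAF downstream of receptors, and SPRED proteins bring the Ras inactivator neurofibromin to the membrane. Etv4 and Etv5 encode ETS factors of the PEA3 group that carry the signal on. Sprouty and SPRED proteins share a cysteine-rich domain, and Sprouty proteins are known to be palmitoylated, but the measurements here are of RNA only.

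Total counts per library ranged from 16525869 to 23192701. Levels are in CPM, counts scaled for depth and composition with the TMM method of edgeR, and a gene was called at an adjusted p under 0.05 in edgeR's quasi-likelihood test with Benjamini-Hochberg adjustment over all tested genes. Zdhhc20 was at 33.9 to 42.5 CPM in the knockout libraries, 85.8 to 123 in the control libraries and 75.3 to 90.7 in the parental libraries, so each knockout library was below every other, and control and parental libraries overlapped. Gene counts do not show the position of the edit. The epithelial markers Krt8, Krt18, Krt19 and Cdh1 were abundant in each group, while Epcam was near absent, with group means from 0.15 to 0.61 CPM. Krt19 averaged 172 CPM in clone E4, 1491 in clone C5 and 1141 in the parental line. Of 7 epithelial markers, 5 were called lower and 1 (Epcam) higher in clone E4 against clone C5, beside 24.2% and 18.7% of all genes. Against the parental line 4 were called lower and 1 (Epcam) higher, beside 18.3% and 13.1%. The summed level of the 7 epithelial markers was 4318 to 4446 CPM in the knockout libraries, 7008 to 9379 in the control libraries and 6696 to 8165 in the parental libraries, and its part in the results below was not tested. Summed markers of fibroblasts, leukocytes, endothelium, hepatocytes and acinar cells reached at most 7.66 CPM in any library (acinar, clone C5), and Col1a2, Col3a1, Dcn, Lum, Cd3e and Adgre1 were at 0 in each. In bulk RNA, fewer cells with a transcript and less of it per cell cannot be told apart.

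Between clone E4 and clone C5, 4 of the 10 genes rose (Dusp5, Spry2, Etv4 and Etv5), 1 fell (Spry1) and 5 were not called. Of all tested genes 42.9% were called in this comparison, 18.7% higher and 24.2% lower. Against the parental line 3 rose in clone E4 (Dusp4, Spry2 and Etv4), 1 fell (Spry1) and 6 were not called, where 31.4% of all genes were called, 13.1% higher and 18.3% lower. Between clone C5 and the parental line 1 rose in clone C5 (Dusp4), 1 fell (Etv5) and 8 were not called, beside 21.4% of all genes, 10.4% higher and 11.0% lower. Libraries did not overlap between the clones for 5 of the 10 genes (51.6% of all genes), 4 higher in clone E4 (24.0% of all genes) and 1 lower (27.6%). They did not overlap between clone E4 and the parental line for 6 (61.5%), 4 higher (29.8%) and 2 lower (31.7%), and between clone C5 and the parental line for 5 (37.3%), 2 higher (18.2%) and 3 lower (19.2%). Of the 3 counts the last depended most on single libraries, with 5 members called without control replicate 2, 4 without control replicate 3, and 1 without control replicate 1, parental replicate 1 or parental replicate 2. Counting either direction, the shares called among the members were near those of all genes. The members' median log2 fold changes were 0.19, 0.25 and -0.15 in the order given, against -0.02, -0.01 and 0.01 over all tested genes. The 2 knockout comparisons share the knockout libraries and are not independent of each other. Spry2 and Etv4 were called higher, and Spry1 lower, in both knockout comparisons, while 8.19% of all genes were called higher against both and 13.4% lower against both.

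**Figure D1:**
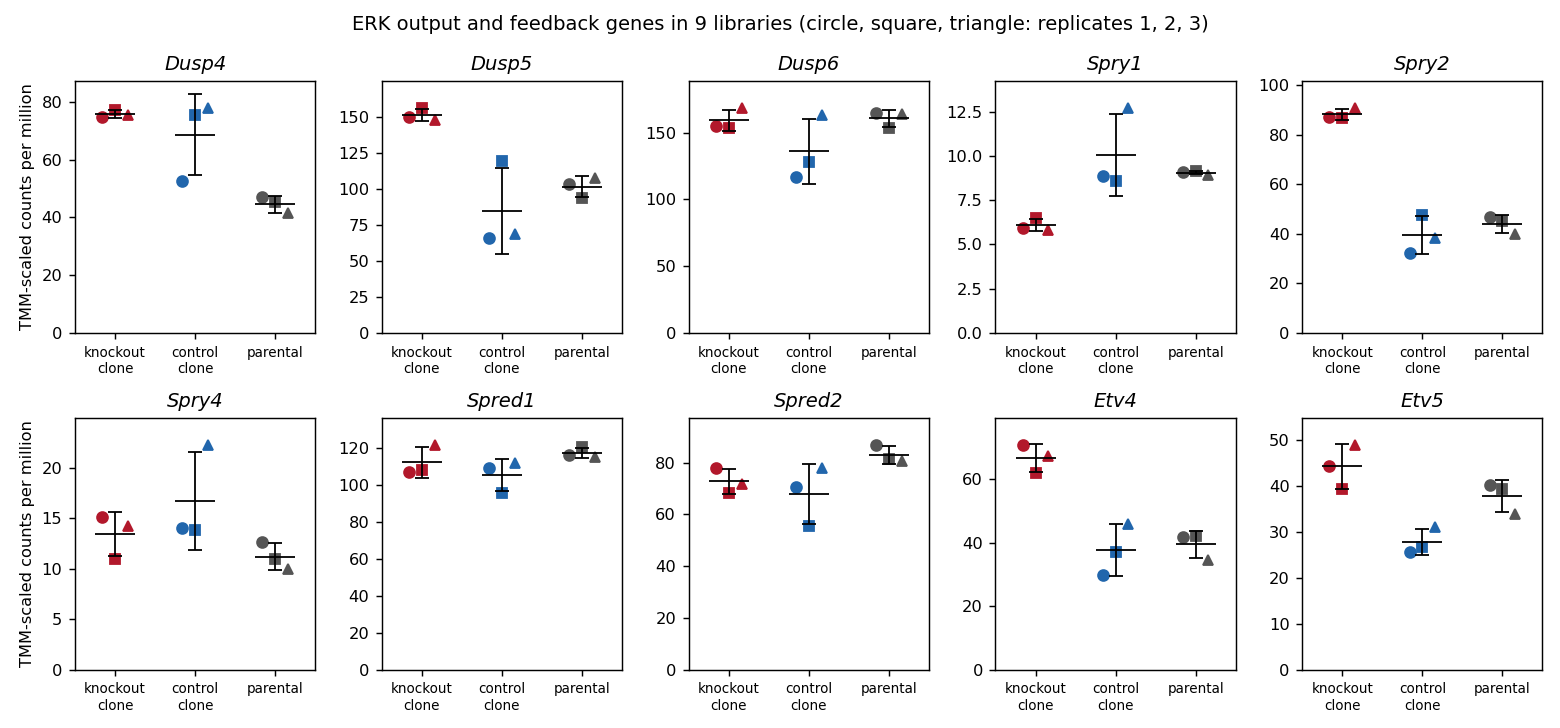
TMM-scaled CPM of the 10 genes in each of 9 libraries, with circles, squares and triangles for replicates 1, 2 and 3 and bars for the mean and SD of 3 libraries. Spry2 and Etv4 lie above all 6 other libraries in clone E4 and Spry1 below them, and clone C5 has the widest spread for most genes.

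Among the Sprouty genes clone E4 had more Spry2 and less Spry1 than either other group. Spry2 (ENSMUSG00000022114) lies on the minus strand of chromosome 14 from 105891947 to 105896819 in GRCm38 and encodes a Sprouty protein that binds the adaptor Grb2 and the ubiquitin ligase Cbl. It was at 86.9, 86.7 and 90.7 CPM in knockout replicates 1 to 3, at 32.4, 47.6 and 38.4 CPM in clone C5, and at 46.8, 45.0 and 40.0 CPM in the parental line. Every knockout library was above every other library, while the control and parental libraries overlapped. Its rise on the log2 scale was 1.16 (SE 0.13, adjusted p 0.000145) against clone C5 and 1.0 (SE 0.13, adjusted p 0.000503) against the parental line, the largest rise of any of the 10 genes in both comparisons. It was the only one of the 10 called with an absolute log2 fold change of 1 or more in these comparisons, where 14.0% and 10.6% of all genes were, and beside 6.47% of all genes no member was between clone C5 and the parental line, where 2 were called by edgeR without that limit. Both calls at an adjusted p under 0.05 held under each alternative run. With single libraries left out the log2 fold change ranged from 1.04 to 1.32 against clone C5 and from 0.94 to 1.05 against the parental line, so the second did not stay above 1. Clone C5 was not called different from the parental line (-0.16, 95% interval -0.45 to 0.13, adjusted p 0.424), but was called lower without control replicate 2 (-0.32, adjusted p 0.0351). Spry2 shares chromosome 14 with Zdhhc20, and the median log2 fold change of the other 436 tested genes of that chromosome was 0.19 against clone C5 and 0.21 against the parental line.

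Spry1 (ENSMUSG00000037211, chromosome 3, plus strand, 37639947 to 37644598), a Sprouty gene best known for restraining receptor signalling in kidney development, moved the other way. It was at 5.96, 6.51 and 5.84 CPM in clone E4, 8.86, 8.57 and 12.7 CPM in clone C5, and 9.10, 9.14 and 8.94 CPM in the parental line. The knockout libraries were below all others, and control replicate 3 was the highest. Its log2 difference was -0.72 (SE 0.16, adjusted p 0.0064) against clone C5 and -0.57 (SE 0.16, adjusted p 0.0261) against the parental line. The second call was lost whenever any single knockout or parental library was left out (adjusted p from 0.0537 to 0.0871), with log2 fold changes from -0.62 to -0.54. Between clone C5 and the parental line the value was 0.15 (95% interval -0.21 to 0.51), and -0.06 without control replicate 3. An annotated gene on the opposite strand, Gm42922, shares 710 exon bases with Spry1 but held 21 counts over all 9 libraries.

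Spry4 (ENSMUSG00000024427), a Sprouty gene often used as a readout of fibroblast growth factor signalling, was not called in any comparison. It was at 15.2, 11 and 14.2 CPM in clone E4, 14.0, 13.9 and 22.3 CPM in clone C5, and 12.6, 11 and 10 CPM in the parental line. Control replicate 3 stood well above the other libraries, the knockout libraries overlapped both other groups, and the control libraries were all above the parental ones. The 95% intervals of its log2 fold change ran from -0.77 to 0.15 for clone E4 against clone C5 and from -0.20 to 0.73 against the parental line, so a change of the size seen for Spry1 lies inside the first. It was 0.58 higher in clone C5 than in the parental line (adjusted p 0.0763), a difference called without a filter (0.57, adjusted p 0.045) and without control replicate 2 (0.69, adjusted p 0.0317).

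Set per kilobase of annotated exon, so that genes can be compared with each other, Spry2 was the most abundant of the 3 Sprouty genes in each library. Its level was 42.2 ± 1.07 CPM per kb in clone E4, 18.9 ± 3.68 in clone C5 and 21.1 ± 1.69 in the parental line (SD, n = 3). Spry1 stood at 2.10 ± 0.123, 3.46 ± 0.794 and 3.12 ± 0.0355 and Spry4 at 2.84 ± 0.46, 3.52 ± 1.02 and 2.35 ± 0.279 in the same order. Spry2 made up 88.8% to 90.1% of the summed Sprouty level in the knockout libraries, 67.0% to 79.6% in the control libraries and 78.7% to 79.8% in the parental libraries, so the makeup of the family differed in clone E4 with no overlap. The summed level itself was 47.2 ± 1.19 CPM per kb in clone E4, 25.9 ± 3.82 in clone C5 and 26.5 ± 1.98 in the parental line.

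**Figure D2:**
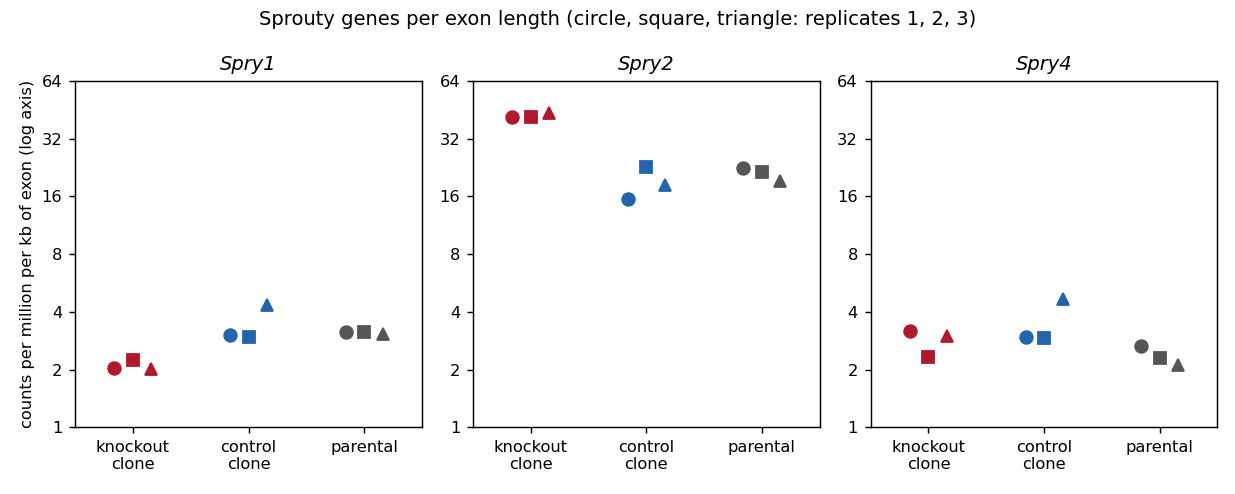
Levels of the 3 Sprouty genes in CPM per kilobase of exon on a log axis, 1 point per library, with circles, squares and triangles for replicates 1, 2 and 3. Spry2 is the highest of the 3 in each group and stands at 42.2 per kb on average in clone E4, where Spry1 falls to 2.10.

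The promoters of the 2 Sprouty genes that moved in opposite directions are shown as the 250 bases before the RefSeq start (GRCm38.p6), Spry2 from chr14:105896820-105897069 on the minus strand and Spry1 from chr3:37639697-37639946 on the plus strand. The search covered 5 motifs, in the letters given below, on both strands of the 300 bases from 250 before to 50 after the start. Capitals would mark a match, and neither promoter has one.
Spry2: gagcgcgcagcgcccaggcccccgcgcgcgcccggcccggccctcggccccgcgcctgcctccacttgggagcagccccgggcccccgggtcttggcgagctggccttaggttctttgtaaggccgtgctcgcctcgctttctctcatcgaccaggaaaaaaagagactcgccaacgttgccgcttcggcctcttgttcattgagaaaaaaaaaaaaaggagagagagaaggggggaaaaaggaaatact
Spry1: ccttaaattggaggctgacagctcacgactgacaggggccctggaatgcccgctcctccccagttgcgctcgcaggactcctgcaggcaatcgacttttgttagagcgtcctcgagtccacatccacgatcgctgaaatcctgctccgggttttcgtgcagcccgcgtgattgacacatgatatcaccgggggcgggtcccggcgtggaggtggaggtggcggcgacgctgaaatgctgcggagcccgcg
The motifs were CGGAAG for ETS factors, TGANTCA for AP-1, TGACGTCA for CREB, TGAATGAA or TGAATGGA for Capicua, and the CArG box of serum response factor. They occurred in 16.9%, 7.81%, 1.79%, 2.47% and 1.63% of all 32851 promoter windows in the order given. For Capicua only these 2 forms were searched, so other forms of its motif were not counted or marked in any promoter. The absence of these letters from a window says nothing of whether the factors bind elsewhere. Promoter entries were matched for 7 of the 10 genes, and Dusp4, Spry4 and Etv4 had none.

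Of the 3 phosphatases, Dusp5 was higher in clone E4 and Dusp4 was higher in both clones than in the parental line, while Dusp6 was not called in any comparison. Dusp5 (ENSMUSG00000034765, chromosome 19, plus strand, 53529109 to 53542431) encodes a nuclear phosphatase that inactivates ERK and holds it in the nucleus. It was at 149, 156 and 148 CPM in clone E4, at 65.6, 119 and 68.7 CPM in clone C5, and at 103, 93.6 and 107 CPM in the parental line. The knockout libraries were above all others, and within clone C5 replicate 2 was 1.81 times as high as replicate 1 and above the parental libraries. The log2 fold change of clone E4 was 0.84 (SE 0.20, adjusted p 0.00748) against clone C5, from 0.69 to 1.17 with single libraries left out. Against the parental line it was 0.57 (SE 0.20, 95% interval 0.13 to 1.02) with an adjusted p of 0.0506, just outside the threshold. That difference was called with size factors of DESeq2 (adjusted p 0.0473), without a filter (0.0111), among genes averaging 5 CPM or more (0.048), by DESeq2 (0.0185), by limma voom (0.0432) and in a fit of these 2 groups alone (3.68e-05). It was also called without control replicate 1, 2 or 3 (adjusted p 0.0391, 0.00016 and 0.0271) and was not called when any knockout or parental library was left out (adjusted p up to 0.142). Clone C5 was called lower than the parental line without control replicate 2 (-0.60, adjusted p 0.00088) and not with it (-0.27, 95% interval -0.71 to 0.17, adjusted p 0.366). An annotated antisense gene, AC137853.2, shares 547 exon bases with Dusp5 and is not among the identifiers used here, and the strand setting of the counting is not given in the sources used here.

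The Dusp5 promoter is shown because it held 2 CArG boxes side by side, from 82 to 73 and from 72 to 63 bases before the start, a motif found in 1.63% of all promoter windows. The Dusp6 promoter, from the phosphatase gene that was not called, is set beside it and held 1 ETS match, from 62 to 57 bases before the start, a motif found in 16.9% of windows. Both are the 250 bases before the RefSeq start in GRCm38.p6 on the plus strand, chr19:53528895-53529144 and chr10:99262981-99263230, with the matches in capitals.
Dusp5: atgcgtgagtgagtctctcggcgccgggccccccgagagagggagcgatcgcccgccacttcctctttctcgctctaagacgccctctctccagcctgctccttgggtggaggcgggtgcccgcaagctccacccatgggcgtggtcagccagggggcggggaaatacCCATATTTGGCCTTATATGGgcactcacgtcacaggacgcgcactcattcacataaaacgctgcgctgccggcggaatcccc
Dusp6: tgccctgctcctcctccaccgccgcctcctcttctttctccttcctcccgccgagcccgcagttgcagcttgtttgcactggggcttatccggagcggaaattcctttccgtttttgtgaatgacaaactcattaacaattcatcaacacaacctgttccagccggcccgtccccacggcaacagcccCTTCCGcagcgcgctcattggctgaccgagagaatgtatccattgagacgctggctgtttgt
A match is a description of the letters and was not tested for binding. Of the other promoters examined, Spred1 held 2 ETS matches and Spred2 held 1. Those of Spry1, Spry2 and Etv5 (2 entries) held 0 matches to the letters searched for the 5 motifs. Only 2 forms of the Capicua motif were searched, so 0 matches does not mean that these promoters lack a Capicua site.

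Dusp4 (ENSMUSG00000031530, chromosome 8, plus strand, 34807297 to 34819894) encodes a nuclear phosphatase of ERK and of the related kinase JNK. It was at 74.8, 77.2 and 75.3 CPM in clone E4, 52.5, 75.5 and 77.8 CPM in clone C5, and 47.0, 45.2 and 41.4 CPM in the parental line. Each library of either clone was above each parental library, and control replicate 1 was the nearest to them. The log2 fold change against the parental line was 0.77 (SE 0.14, adjusted p 0.0028) for clone E4 and 0.62 (SE 0.14, adjusted p 0.0122) for clone C5. Both calls at an adjusted p under 0.05 held in each alternative run, and both values lie under the limit of 1 on the log2 scale. The second had an adjusted p of up to 0.0491. These 2 comparisons share the parental libraries. Between the clones the value was 0.14 (95% interval -0.16 to 0.45, adjusted p 0.416), and -0.02 without control replicate 1.

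Dusp6 (ENSMUSG00000019960, chromosome 10, plus strand, 99263231 to 99267489) encodes the cytoplasmic phosphatase most specific for ERK. It was at 155, 154 and 168 CPM in clone E4, 116, 128 and 163 CPM in clone C5, and 164, 154 and 164 CPM in the parental line. Control replicates 1 and 2 were the lowest libraries, and control replicate 3 lay within the range of the other groups. The log2 fold change was -0.01 for clone E4 against the parental line, with a 95% interval from -0.28 to 0.25, and its sign turned when knockout replicate 1 or 2 or parental replicate 1 was left out (0.0035, 0.0097 and 0.0027). It was 0.23 against clone C5 (95% interval -0.04 to 0.49, adjusted p 0.144). Without control replicate 3 clone C5 was called lower than clone E4 (0.38, adjusted p 0.00272) and lower than the parental line (-0.40, adjusted p 0.00474).

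Per kilobase of exon Dusp5 was the most abundant phosphatase of the 3 in clone E4, at 61.1 ± 1.76 CPM per kb against 50.8 ± 2.58 for Dusp6 and 27.7 ± 0.471 for Dusp4 (SD, n = 3). In the parental line the order was Dusp6 at 51.3 ± 1.96, Dusp5 at 41.0 ± 2.86 and Dusp4 at 16.3 ± 1.03. Clone C5 had the parental order on average, with Dusp6 at 43.4 ± 7.82, Dusp5 at 34.1 ± 12.1 and Dusp4 at 25.0 ± 5.12. There Dusp5 took 41.3% of the summed level in replicate 2 and 25.6% to 32% in the others, and Dusp4 took 26.2% in replicate 3 where Dusp5 took 25.6%, so the place of Dusp5 in the order of the 3 rests in that clone on which library is read.

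Both PEA3 factors rose in clone E4 against clone C5, and Etv4 also rose against the parental line. Etv4 (ENSMUSG00000017724, chromosome 11, minus strand, 101769742 to 101785371) is an ETS factor linked to branching growth of epithelia and to invasion. It was at 71.0, 62.1 and 67.3 CPM in clone E4, 29.7, 37.1 and 46.1 CPM in clone C5, and 42.0, 42.2 and 34.7 CPM in the parental line. The knockout libraries were above all 6 others, which overlapped among themselves. Its rise on the log2 scale was 0.83 (SE 0.15, adjusted p 0.00201) against clone C5 and 0.75 (SE 0.15, adjusted p 0.00494) against the parental line. Both calls at an adjusted p under 0.05 held in each alternative run, and both values lie under the limit of 1. Clone C5 and the parental line differed by -0.08 (95% interval -0.41 to 0.26), and by 0.07 without control replicate 1.

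Etv5 (ENSMUSG00000013089, chromosome 16, minus strand, 22381309 to 22439719), its close relative, set clone C5 below the other groups instead. It was at 44.3, 39.3 and 48.9 CPM in clone E4, 25.7, 26.6 and 31.0 CPM in clone C5, and 40.1, 39.2 and 33.8 CPM in the parental line. The control libraries were below all others, and the knockout and parental libraries overlapped. The log2 fold change of clone E4 was 0.67 (SE 0.12, adjusted p 0.00152) against clone C5, a call at an adjusted p under 0.05 that held in each alternative run, and 0.23 (95% interval -0.03 to 0.48, adjusted p 0.161) against the parental line. Clone C5 was called lower than the parental line (-0.44, SE 0.12, adjusted p 0.0248), a call lost without control replicate 1 (-0.39, adjusted p 0.0782), without parental replicate 1 or 2 (-0.41 and -0.43, adjusted p 0.0896 and 0.0809) and in the fit of only those groups (adjusted p 0.0552). Over the other 402 tested genes of chromosome 16 the median log2 difference was -0.35 in clone E4 against clone C5 and -0.29 against the parental line, opposite in sign to that of Etv5. Per kilobase of exon Etv4 was above Etv5 in each library, at 21.5 ± 1.43 against 10.8 ± 1.17 in clone E4, 12.1 ± 2.64 against 6.77 ± 0.698 in clone C5 and 12.8 ± 1.37 against 9.19 ± 0.828 in the parental line (SD, n = 3). Etv4 made up 64.6% to 67.9% of their sum in the knockout libraries, 60.5% to 66.3% in the control libraries and 57.6% to 58.7% in the parental libraries.

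Neither SPRED gene was called in any comparison. Spred1 (ENSMUSG00000027351, chromosome 2, plus strand, 117121374 to 117182279), whose loss in people causes Legius syndrome, was at 107, 108 and 122 CPM in clone E4, 109, 95.7 and 112 CPM in clone C5, and 117, 120 and 115 CPM in the parental line. The knockout libraries overlapped those of both other groups, and the control libraries were all below the parental ones. Its log2 fold changes were 0.09 (95% interval -0.10 to 0.28) for clone E4 against clone C5, -0.06 (-0.25 to 0.13) against the parental line and -0.15 (-0.34 to 0.04) for clone C5 against the parental line. Each interval excludes a change as large as that of Etv4 or Spry2 in clone E4.

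Spred2 (ENSMUSG00000045671, chromosome 11, plus strand, 19924375 to 20024026), the other neurofibromin partner, was at 78.1, 68.4 and 71.9 CPM in clone E4, 70.4, 55.4 and 77.9 CPM in clone C5, and 86.9, 81.5 and 80.6 CPM in the parental line. The parental libraries were the 3 highest. The difference from the parental line was -0.19 in clone E4 (95% interval -0.45 to 0.08, adjusted p 0.252), called in the fit of only those groups (-0.19, adjusted p 0.0288). It was -0.29 in clone C5 (95% interval -0.55 to -0.02, adjusted p 0.113), called without control replicate 3 (-0.40, adjusted p 0.0214). Between the clones it was 0.10 (95% interval -0.17 to 0.37), and -0.02 without control replicate 2. Per kilobase of exon both SPRED genes lay close together, at 16.6 ± 1.22 and 15.8 ± 1.06 in clone E4 and 17.3 ± 0.399 and 18.0 ± 0.737 in the parental line (SD, n = 3).

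**Figure D3:**
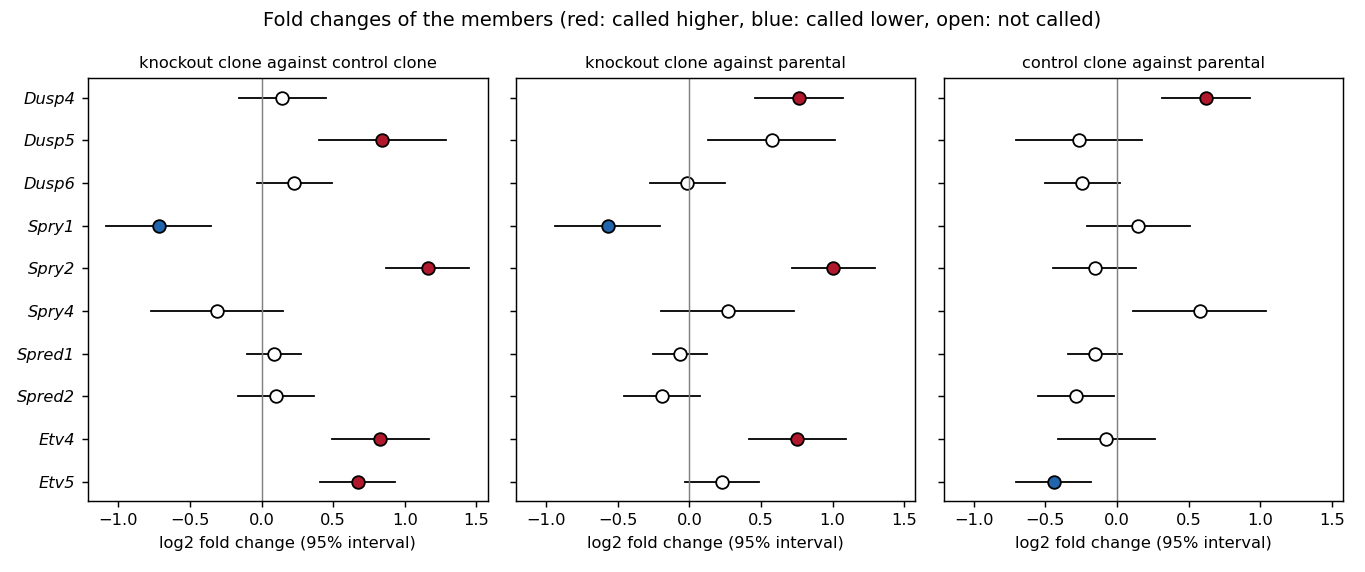
Log2 fold changes of the 10 genes with 95% intervals in 3 comparisons, with filled points for genes called at an adjusted p under 0.05 (red higher, blue lower) and open points for the others. Spry2 has the largest rise in both knockout comparisons, at 1.16 and 1.0, while Spred1 and Spred2 lie nearest to 0 between the clones, and Dusp6 and Spred1 for clone E4 against the parental line.

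The spread between libraries differed by group. The median SD of log2 CPM over the 10 genes was 0.29 in clone C5, 0.09 in clone E4 and 0.10 in the parental line, beside 0.20, 0.08 and 0.08 over 10020 genes averaging 5 CPM or more. The main fit estimated the spread over all groups together, so its p-values for clone E4 against the parental line also carry the spread of clone C5. Clone C5 had the largest SD for 9 of the 10 genes, as it did for 77.7% of those 10020 genes. Within it replicate 3 was the highest library for 8 of the 10 genes and replicate 2 for Dusp5 and Spry2. Among the 10020 genes replicate 3 was the highest for 37.8% and replicate 2 for 43.6%.

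By the root mean square difference of log2 CPM profiles over the 9 libraries, each centred on its own mean, the gene most like each member was Rsbn1 for Dusp4 (0.11), Riok1 for Dusp5 (0.12), Pdlim5 for Dusp6 (0.05), Dab2ip for Spry1 (0.07), Ccnj for Spry2 (0.09), Mccc1 for Spry4 (0.09), Eps15 for Spred1 (0.04), Csnk1g2 for Spred2 (0.06), Cth for Etv4 (0.09) and Iqcb1 for Etv5 (0.07). None of the nearest genes was itself a member. Among the members the nearest was Spred2 for Spred1 (0.12), Spred1 for Dusp6 (0.13), Dusp6 for Etv5 (0.20) and Spry2 for Etv4 (0.21).

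The kinase cascade above these genes was described from the first of 5 lists, whose counts stand beside the 18.7% of all genes called higher and 24.2% lower in clone E4 against clone C5, 13.1% and 18.3% against the parental line, and 10.4% and 11.0% for clone C5 against the parental line. It holds 21 genes for adaptors, Ras proteins, RAF, MEK, ERK and ribosomal S6 kinases. All 21 passed the filter. Against clone C5 6 rose and 8 fell in clone E4, against the parental line 3 rose and 7 fell, and 2 fell in clone C5 against the parental line. The list's median log2 fold changes were -0.04, -0.07 and -0.01, close to those of all genes. Without control replicate 3 the number that rose in clone E4 against the parental line was 5. For clone C5 against the parental line 4 fell and 1 rose without control replicate 3, 2 rose without control replicate 2, and the 2 that fell became 1 without knockout replicate 2. Both were lost without knockout replicate 1 or 3, control replicate 1 or any parental library. Of the RAF kinases, Braf rose in clone E4 (58.3 ± 3.67 CPM against 41.5 ± 5.68 in clone C5 and 38.5 ± 3.84 in the parental line, adjusted p 0.00758 and 0.00417). Araf fell (22.1 ± 0.55, 37.4 ± 3.98 and 34.6 ± 2.67 CPM, adjusted p 0.000354 and 0.00134). Below them Map2k1 (MEK1) was also lower, at 117 ± 11.6, 180 ± 24.9 and 181 ± 4.95 CPM (adjusted p 0.00167 and 0.00244). These calls of Braf, Araf and Map2k1 at an adjusted p under 0.05 held in each alternative run.

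Map2k2 (MEK2) was not called in either knockout comparison (-0.21 and -0.12, adjusted p 0.0512 and 0.28), although the first was called without control replicate 3 (-0.26, adjusted p 0.0114), among genes averaging 5 CPM or more (adjusted p 0.0285) and by DESeq2 (adjusted p 0.0365). Mapk3 (ERK1) was lower in clone E4 than in the parental line (-0.52, adjusted p 0.0322), a call lost without any 1 of the knockout or parental libraries (adjusted p from 0.0679 to 0.125). It was -0.04 against clone C5, positive without knockout replicate 2 or control replicate 1 or 3 (0.01, 0.03 and 0.09). The largest difference in the list was in Gab1, a docking protein that links receptors to Ras and phosphatidylinositol 3-kinase, at 1.58 ± 0.221 CPM in clone E4, 9.05 ± 1.06 in clone C5 and 12.2 ± 0.651 in the parental line (SD, n = 3). Its log2 fold changes were -2.52 (adjusted p 8.16e-06) and -2.95 (adjusted p 4.79e-06), and no library overlapped. Between clone C5 and the parental line the adaptor Grb2 was called lower (-0.22, adjusted p 0.0323), as was the kinase Rps6ka3 (-0.43, adjusted p 0.0361). Each of these calls was lost in 8 or more of the 17 alternatives, among them leaving out any parental library (adjusted p from 0.0737 to 0.123). Both genes were called higher in clone E4 than in clone C5, Grb2 by 0.29 (adjusted p 0.0041) and Rps6ka3 by 0.38 (adjusted p 0.0354). At an adjusted p under 0.05 the call of Grb2 held in each alternative run, and that of Rps6ka3 was lost in 8.

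Of 12 other inhibitors of Ras or ERK, 4 rose and 4 fell in clone E4 against clone C5, and 2 rose and 4 fell against the parental line. Rasa1, a GTPase-activating protein that switches Ras off, was at 142 ± 2.43 CPM in clone E4, 63.1 ± 1.63 in clone C5 and 84.6 ± 4.55 in the parental line (SD, n = 3). The 3 groups did not overlap, and all 3 differences were called (1.17, 0.75 and, for clone C5 against the parental line, -0.42). Rasa1 lies on chromosome 13, and whether its change is shared by other genes of that chromosome was not tested. Rasal2, a relative with the same activity, was called higher in clone E4 than in clone C5 (0.70, adjusted p 0.000716). That call at an adjusted p under 0.05 held in each alternative run. Against the parental line Rasal2 was not called in clone E4 (0.29, adjusted p 0.059), though 4 alternatives called it. Rasal2 was called lower in clone C5 than in the parental line (-0.41, adjusted p 0.0235), a call lost without control replicate 1 (-0.33, adjusted p 0.0728) or without parental replicate 1 (-0.36, adjusted p 0.083) or 2 (-0.40, adjusted p 0.0727) and in the fit of only those groups (adjusted p 0.0642). Capicua (Cic), the repressor of Etv4, Etv5 and other ERK targets, was looked up after the members' values had been seen. It was at 108 ± 8.77, 120 ± 13.5 and 109 ± 4.23 CPM in clone E4, clone C5 and the parental line and was not called in any comparison (adjusted p from 0.23 to 0.9).

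Of 10 paralogs of the members, 8 passed the filter, and 3 rose and 2 fell in clone E4 against clone C5, while 2 rose and 1 fell against the parental line. The 2 that fell became 1 without knockout replicate 2 or 3, control replicate 2 or parental replicate 1, and the 2 that rose became 4 without control replicate 2 and 1 without knockout replicate 1 or 3 or any parental library. Dusp16, a phosphatase that prefers JNK and p38, was at 80.6, 82.2 and 80.5 CPM in clone E4, 35.3, 33.8 and 43.5 CPM in clone C5 and 39.6, 38.4 and 41.0 CPM in the parental line. It was raised by 1.11 (adjusted p 3.99e-05) and 1.03 (adjusted p 9.9e-05) on the log2 scale, a rise of the size seen for Spry2. Dusp1, an immediate early phosphatase, was lowest in clone C5, at 24.1 ± 10.7 CPM against 118 ± 11 in clone E4 and 79.0 ± 16 in the parental line (SD, n = 3). It was called between the clones (2.30, adjusted p 0.000198) and between clone C5 and the parental line (-1.72, adjusted p 0.00257). Its knockout value against the parental line was 0.58 (adjusted p 0.116), called with no filter on low counts (adjusted p 0.0387), after control replicate 2 was left out (adjusted p 0.00564) and in the fit of only those groups (adjusted p 0.00284). Dusp7, a cytoplasmic relative of Dusp6, was higher in clone C5 than in the parental line (0.64, adjusted p 0.0292), a call lost without parental replicate 1 (0.63, adjusted p 0.0869) or 3 (0.53, adjusted p 0.1) and in the fit of only those groups (adjusted p 0.075). Spry3 held 1 count in the knockout libraries together, 34 in the control libraries and 82 in the parental libraries. The parental level was 83.3 times that of clone E4 (95% exact Clopper-Pearson interval 14.5 to 3329) and the control level 32.1 times (5.39 to 1307), intervals that cover counting error only.

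Among 16 other transcripts known to rise with ERK activity, 9 rose and 1 fell in clone E4 against clone C5, with a median log2 fold change of 0.66. Against the parental line 7 rose and 3 fell (median 0.44), and between clone C5 and the parental line 2 rose and 5 fell (median 0.14). With single libraries left out the number that rose ranged from 7 to 12 and from 4 to 9 in the 2 knockout comparisons, the 4 being reached without knockout replicate 1 or 2 or parental replicate 2 or 3. The 2 that rose in clone C5 became 4 without control replicate 3 and 1 without parental replicate 1 or 2. Lif, a cytokine of the interleukin 6 family, was at 25.3 ± 2.39, 5.79 ± 1.04 and 6.44 ± 0.973 CPM in clone E4, clone C5 and the parental line, and Hmga2, a chromatin protein, at 483 ± 49.6, 169 ± 58.2 and 155 ± 42.7 CPM (SD, n = 3). Both rose against both groups, Lif by 2.13 and 1.97 (adjusted p 2.1e-05 and 5.29e-05) and Hmga2 by 1.52 and 1.64 (adjusted p 0.00199 and 0.00212) on the log2 scale.

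The 3 genes of this list with the largest called differences between clone C5 and the parental line were immediate early genes, and each was lowest in clone C5. Egr1 was at 145 ± 18.4 CPM in clone E4, 4.27 ± 1.04 in clone C5 and 244 ± 21.8 in the parental line (SD, n = 3), Fos at 21.8 ± 3.73, 6.63 ± 3.27 and 38.0 ± 3.36, and Ier2 at 74.9 ± 1.13, 26.4 ± 1.65 and 111 ± 14.2. For all 3 genes the groups did not overlap, and clone E4 lay between the others. Clone C5 was called lower than the parental line for each (-5.84, -2.51 and -2.08). Clone E4 was called lower than the parental line for Egr1 (-0.75, adjusted p 0.00382), Ier2 (-0.57, adjusted p 0.00211) and Fos (-0.80, adjusted p 0.0439), the last lost without any 1 knockout or parental library or without control replicate 1 (adjusted p from 0.0573 to 0.154). The 10 feedback and output genes spanned a narrower range between clone C5 and the parental line, from -0.44 for Etv5 to 0.62 for Dusp4.

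**Figure D4:**
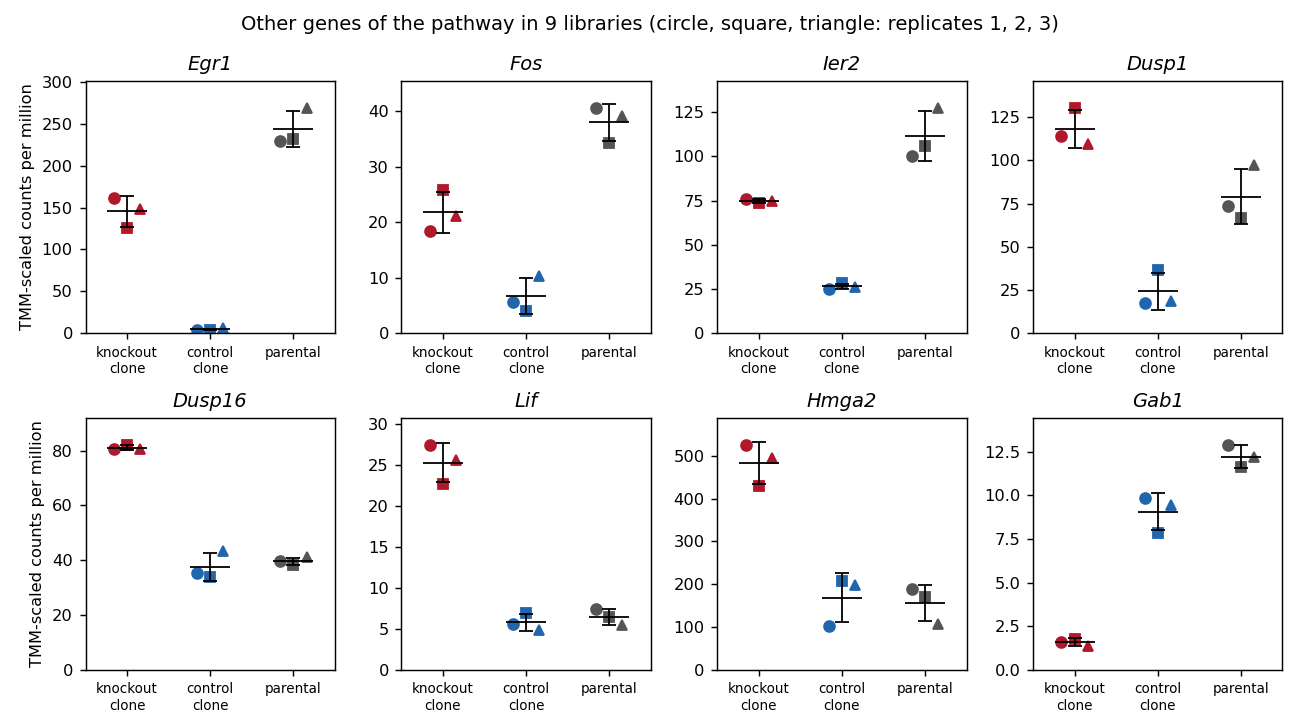
TMM-scaled CPM of 8 other genes of the pathway in each of 9 libraries, with circles, squares and triangles for replicates 1, 2 and 3 and bars for the mean and SD of 3 libraries. Egr1, Fos, Ier2 and Dusp1 are lowest in clone C5, Dusp16, Lif and Hmga2 are highest in clone E4, and Gab1 is lowest there at 1.58 CPM.

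Of 16 receptor tyrosine kinases, which start the pathway, 10 passed the filter, and 1 rose and 4 fell in clone E4 against clone C5, while 4 fell against the parental line. The single rise was lost without knockout replicate 1 or control replicate 1 and became 2 without control replicate 2 or 3. The 4 that fell against the parental line became 2 without knockout replicate 1 or 3 or any parental library. Erbb3, a partner of the EGF receptor, was at 5.70 ± 0.535, 17.5 ± 8.32 and 12.2 ± 3.55 CPM in clone E4, clone C5 and the parental line (SD, n = 3). Its log2 fold changes were -1.62 (adjusted p 0.00617) and -1.09 (adjusted p 0.0484), the second lost without any 1 knockout or parental library or without control replicate 1 (adjusted p up to 0.181), by limma voom (adjusted p 0.113) and among genes averaging 5 CPM or more (adjusted p 0.0531). Pdgfra, a platelet-derived growth factor receptor, was low in each group, at 0.702 ± 0.28, 1.68 ± 0.647 and 2.94 ± 0.546 CPM, with log2 fold changes of -1.24 (adjusted p 0.0239) and -2.04 (adjusted p 0.00281). The first was lost without knockout replicate 2 or 3 or control replicate 3 (adjusted p 0.0851, 0.084 and 0.0709) and in the fit of only those groups (adjusted p 0.0579). Fgfr4 held 1 count in the knockout libraries, 3 in the control libraries and 38 in the parental libraries, so the parental level was 13.6 times that of clone C5 (95% exact Clopper-Pearson interval 4.32 to 68.9, for counting error only).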

How the data were processed

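The authors deposited estimated counts per gene, 1 column per library, which were whole numbers throughout, so rounding changed none. The submitters' processing notes name STAR 2.5.2, RSEM 1.3.0, DESeq2 1.10.1 and build GRCm38, without their roles. The annotation release and strand setting are not given in the sources used here. RSEM shares reads between genes that match equally well, so similar or overlapping genes are uncertain.

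Symbols, positions and exon lengths came from GENCODE M21 (GRCm38), which held 54809 of 54838 identifiers. In R 4.3.3, edgeR 4.0.16 was used with filterByExpr (minimum count 10, minimum total 15), TMM scaling and glmQLFTest, with all 9 libraries in 1 fit and group as the only term. Intervals are log2 fold change ± SE times the t quantile at 95%. The test was checked on simulated counts. Alternatives were scaling by DESeq2 size factors or total counts, no filter, a mean of at least 5 CPM, DESeq2 1.42.0, limma 3.58.1 voom, a replicate block, only the groups compared, a minimum absolute log2 fold change of 1, and each library left out.

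The members, lists and tests were chosen with earlier results of these data known. Named genes are the members, RAF, MEK and ERK genes, list genes called against both groups in 1 direction, by 1 or more in each on the log2 scale, up to 3 called genes of each list that differ most between clone C5 and the parental line, and 1 nearest profile (mean of at least 5 CPM) for each member. Some genes that this rule names are not reported here.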

Additional observations from a re-analysis of the deposited data

How the results depend on the processing

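Of 30 log2 fold changes (10 genes in 3 comparisons), 15 kept their sign and their call at an adjusted p under 0.05 in all 17 alternatives other than the limit on the fold change. Over the single values 476 kept both, 17 gained a call, 10 lost one and 7 turned in sign, all 7 for uncalled genes with 1 library left out. Without single libraries Dusp4 ranged from -0.0166 to 0.247 and Spred2 from -0.0222 to 0.208 between the clones, Dusp6 from -0.0553 to 0.00965 for clone E4 against the parental line, and Spry1 from -0.0552 to 0.244 and Etv4 from -0.249 to 0.0701 for clone C5 against the parental line. With single libraries left out the number of members called ranged from 5 to 6, 3 to 5 and 1 to 5 in the comparisons of knockout with control, knockout with parental and control with parental, and the number of all genes called from 4301 to 7204, 2515 to 5693 and 1472 to 4102. With only those 2 groups in the fit, 6840 genes and 6 members were called for clone E4 and 1525 genes and 1 member for clone C5 against the parental line. With changes of 1 or more on the log2 scale, 1 member was called in each knockout comparison and 0 in the third (2 by edgeR without that limit), and 1843, 1392 and 851 genes. The replicate numbers carry no stated pairing, and the correlations of same-numbered libraries ranged from -0.22 to 0.34, so the numbers were not taken as pairs. A replicate block called 5528, 3941 and 2492 genes and changed no call of a member. With 3 libraries of 1 clone a group, the data do not separate the edit from other differences between clones.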
